A study of Homo sapiens and Mus musculus with 61 samples.

Results

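The genes described here encode CTCF and the cohesin machinery: CTCF, RAD21, SMC1A, SMC3, STAG1, STAG2 and NIPBL. All lie outside the locus that the guides of the series target. In each of 17 tables, a listed 300 bp window was assigned to a gene when its nearest protein-coding transcription start (GENCODE on GRCh37, the same coordinates as hg19, measured from the window's centre) belonged to that gene and lay within 10000 bp. This gave 26 window entries out of 143198 over all tables, in 14 of the 17 tables. The entries fell at 6 of the 7 genes. CTCF and STAG1 were each listed in 8 tables, RAD21 in 4, SMC1A in 3, STAG2 in 2 and NIPBL in 1, and SMC3 was listed in 0.

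CTCF is a zinc-finger protein that binds DNA and, at many of its sites, halts the cohesin ring. SMC1A, SMC3 and RAD21 form that ring, either STAG1 or STAG2 is bound to it as a further subunit, and NIPBL loads cohesin on chromatin and stimulates its movement along DNA. Together these proteins fold chromosomes into loops, and in erythroid cells CTCF occupies HS5 and 3'HS1, the sites at both ends of the beta-globin cluster.

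CAPTURE-ChIP-seq recovers DNA bound by a biotinylated, catalytically inactive Cas9 (dCas9) that a single guide RNA directs to a chosen site, through streptavidin beads. Every library used here came from K562, an established human erythroleukaemia line, carrying biotinylated dCas9. The cells also carried a targeting guide, pooled guides for HS1 to HS5 (group sgHS1-5) or sgGal4, a guide without a target. The targeting groups are labelled after elements of the beta-globin cluster on chromosome 11. Those with 1 library were sgHBB, sgHS2-sg2 and sgHS3-sg2. Those with 2 were sgHS1, sgHS1-sg2, sgHS4, sgHS4-sg2, sgHS5-sg2, sgHBB-sg2, sgHBG-sg2, sgHBD-1kb and sg3'HS1. The groups sgHS3 and sgHS5 had 3 libraries, sgHBG had 4, sgHS2 had 5 and sgHS1-5 had 6, and the suffix sg2 marks a second guide. Each of the 17 tables set 1 targeting group against the same 4 sgGal4 libraries, so the tables share their control. The labels give neither treatment nor time, nor whether dCas9 cells were 1 clone, nor whether replicates were separate cultures. The p-values therefore reflect variation among libraries only, and that variation could be technical. No member window lies on chromosome 11, and the tag in the authors' deposited table marked none of the 26 as an intended or off-target site.

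The deposited value of a library in a window is a log2 level, scaled anew in each table, from which the number of reads was recovered. Over the windows of a table, guide libraries held 7127 to 432553 reads, sgGal4 replicates 1 and 2 held 41128 to 169968, and sgGal4 replicates 3 and 4 only 6499 to 18647. The scaling gave a window with 0 reads in sgGal4 replicate 3 or 4 a level between 1.96 and 3.68, whereas 0 reads in replicates 1 and 2 stood between -2.65 and 1.55. At the member windows the highest of the 4 sgGal4 levels came from replicate 3 or 4 in 26 of 26 entries, against 76.2% of all windows. At 23 of 26 both stood above replicates 1 and 2. These shallow libraries enter every ratio below unless it is said otherwise.

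At most of the listed windows of these genes the guide libraries stood above sgGal4 on average, but 1 difference passed the test. The log2 ratio, that of the mean linear guide level over the mean linear sgGal4 level, had a median of 1.004 over the 26 entries. Over all 143198 windows the median was 0.078, and it was 0.52 over those within 1 kb of a start. It was above 0 at 24 of 26 entries (52.4% of all windows) and at least 1 at 13 of 26 (17.3% of all windows, 24.8% of those within 1 kb of a start). On recovered reads with a pseudocount of 1 it was above 0 at 21 of 26. On the deposited scale it was at most -1 at 0 of 26, compared with 25.3% of all windows and 7.51% of those within 1 kb of a start, where 73.9% were above 0. A window was called when limma's Benjamini-Hochberg adjusted p, over all windows of the table, was below 0.05 and the log2 ratio was at least 1 or at most -1. By that rule 1 of 26 entries was higher, at the CTCF promoter with sgHS4-sg2, against 1.66% of all windows, and 0 were lower, against 11.2%. Within 1 kb of a start, where 24 of the 26 entries lie, 2.09% of windows were called higher and 2.27% lower. At an unadjusted limma p below 0.05, 8 entries with a ratio of at least 1 passed, against 9.48% of all windows, and 1 other. How the authors chose the windows to list is unknown here. Of windows with a ratio of at most -1, 98.9% had the same coordinates in another table. Of those with at least 1, 0.992% did, as did 0 of 26 member entries. Whether windows were listed through guide signal was not tested. The counts above sgGal4 here and below therefore cannot be told apart from an effect of listing. Each member entry had 12 to 81 guide reads and 0 to 26 sgGal4 reads, and a gene in a table without a listed window has no value.

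**Figure D1:**
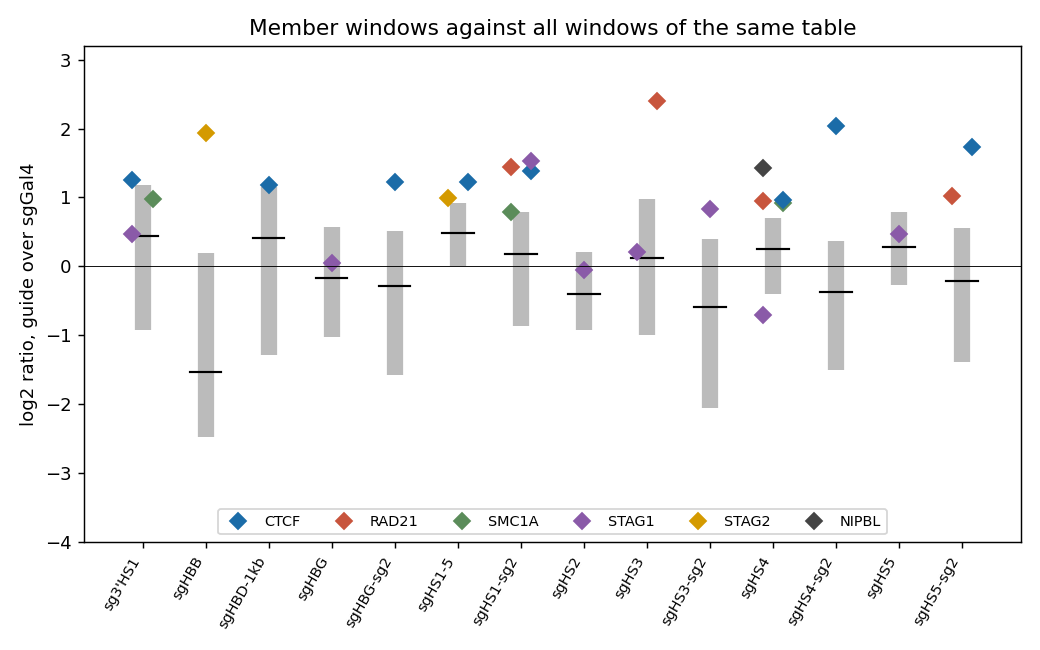
Log2 ratio of guide over sgGal4 (vertical axis) for each member window (diamonds, coloured by gene) in the 14 tables that list one (horizontal axis). Grey bars span the interquartile range of all windows of that table and black lines mark their median; RAD21 at 2.40 in sgHS3 and CTCF at 2.03 in sgHS4-sg2 are the largest of the 26 ratios on the deposited scale.

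The call depended on the controls. With sgGal4 replicates 1 and 2 alone, 14 of 26 entries were called higher by limma (adjusted p below 0.05), but so were 24.4% of all windows and 31.97% of those within 1 kb of a start. They were 7 of 8 CTCF entries, 3 of 4 RAD21 entries, 2 of 8 STAG1 entries, 1 of 3 SMC1A entries and 1 of 2 STAG2 entries. The STAG2 entry (sgHBB) and 1 of the STAG1 entries (sgHS3-sg2) rest on a single guide library. Every guide library stood above every sgGal4 library at 12 of 26 entries, against 14.5% of all windows and 21.9% of those within 1 kb of a start. It stood below every one at 0 of 26, against 23.5% of all windows. Against sgGal4 replicates 1 and 2 only, the guide libraries did not overlap at 21 of 26 entries, against 41.2% of all windows. Counted as reads per 100000 reads in listed windows, pooled over libraries, the guides exceeded sgGal4 at 24 of 26 entries, against 47.9% of all windows and 68.5% of those within 1 kb of a start. The exact 95% interval of that ratio, which covers counting error only, lay above 1 at 17 of 26. This count includes the CTCF entry of sgHS5-sg2, which had 0 sgGal4 reads and so no computed interval. The same share over all windows was not computed, so this count cannot be read as a result about these genes.

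**Figure D2:**
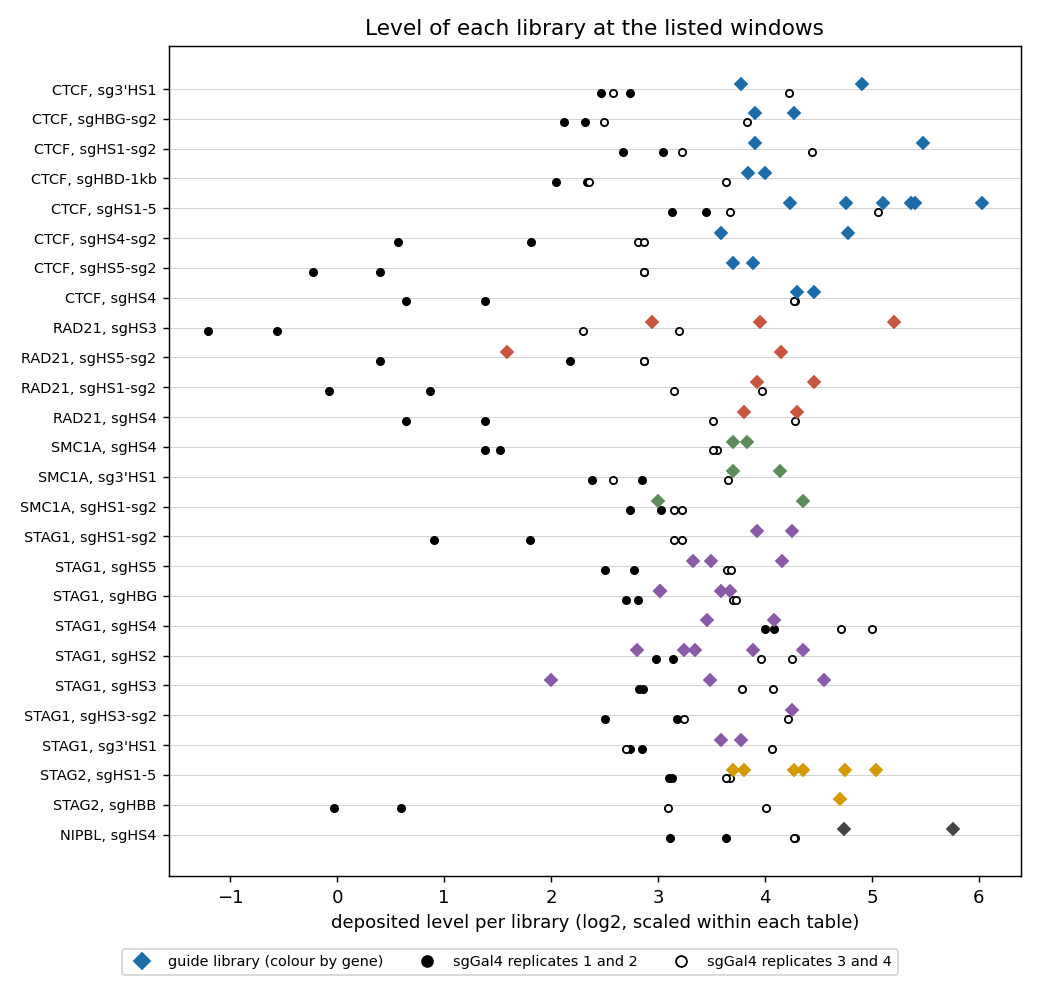
Deposited log2 level of each library (horizontal axis, scaled within each table) at the 26 windows, 1 row per gene and table. Diamonds are guide libraries, filled circles sgGal4 replicates 1 and 2, open circles sgGal4 replicates 3 and 4; an open circle is the rightmost circle in 26 of 26 rows.

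CTCF windows had more signal with guides than with sgGal4 in all 8 tables that list one, with log2 ratios between 0.96 and 2.03, though limma called only the sgHS4-sg2 window. The annotation places its start on the plus strand of chromosome 16 at 67596370, with a further start at 67596492, and that of the divergent transcript CTCF-DT lies within 1 kb, so no window can be given to 1 of the genes alone. Overlapping windows of 6 tables were centred 79.5 to 335.5 bp upstream of the start, and another pair lay in an intron. The stretch common to 5 of the upstream windows is shown first because the windows of 5 targeting groups contain it, and the upstream 229 bases of the called window next. The last is the stretch of the intron shared by 2 tables. Capitals mark matches to AGNGGGCG, a part of the CTCF core motif, on the minus strand, which read here as their reverse complement.
CTCF upstream, chr16:67595954-67596184, plus strand, GRCh37: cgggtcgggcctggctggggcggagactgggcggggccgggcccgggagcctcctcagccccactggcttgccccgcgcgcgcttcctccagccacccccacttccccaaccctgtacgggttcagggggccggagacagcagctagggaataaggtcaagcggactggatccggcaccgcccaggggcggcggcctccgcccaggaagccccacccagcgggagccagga
CTCF start, sgHS4-sg2 window, chr16:67596141-67596369, plus strand, GRCh37: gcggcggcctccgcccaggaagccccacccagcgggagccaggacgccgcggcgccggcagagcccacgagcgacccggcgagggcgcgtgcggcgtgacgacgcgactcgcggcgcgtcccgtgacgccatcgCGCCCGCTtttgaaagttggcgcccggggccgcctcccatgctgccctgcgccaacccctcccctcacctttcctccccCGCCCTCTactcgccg
CTCF intron, chr16:67596877-67597043, plus strand, GRCh37: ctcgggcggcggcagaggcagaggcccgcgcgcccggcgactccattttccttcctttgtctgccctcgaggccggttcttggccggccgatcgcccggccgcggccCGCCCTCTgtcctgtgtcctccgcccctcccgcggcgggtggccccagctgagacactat

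The sgHS4-sg2 window (chr16:67596141-67596440) reaches 71 bp into an exon and 229 bp upstream. Guide replicates 1 and 2 had 11 and 19 reads there, and the 4 sgGal4 libraries had 2, 1, 0 and 0. On the deposited scale these were log2 levels of 3.59 and 4.78 against 1.81, 0.57, 2.81 and 2.87, so both guide libraries stood above all 4 controls. The log2 ratio was 2.03, rank 9 of the 6242 windows of the table, where 0.529% of windows were called higher. The difference of mean log2 levels was 2.17 ± 0.69 (SE, limma, n = 2 guide and 4 sgGal4 libraries, adjusted p = 0.0463). Pooled, guide reads were 17.9 times as frequent among the reads of the table's windows (exact 95% interval for counting error 5.57 to 91.8).

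That call stood close to the threshold. It was lost without sgGal4 replicate 1 (limma adjusted p = 0.0718) or 2 (0.0785), and without guide replicate 1 (0.118) or guide replicate 2 (0.343). On recovered reads with a pseudocount of 1 the log2 ratio was 3.43, yet limma's adjusted p was 0.0706, and with a pseudocount of 5 these were 1.89 and 0.157.

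The other 5 upstream windows share 44 to 113 bases with the called one and start 187 to 256 bases further upstream. Unlike the called window, they held 12 sgGal4 reads, 4, 6, 0 and 2 in replicates 1 to 4. With sgHBG-sg2 the guide reads were 14 and 16, with a log2 ratio of 1.23 (limma adjusted p = 0.112). With sgHBD-1kb they were 15 and 10, with a ratio of 1.18 (adjusted p = 0.100, limma). In both tables the guide levels stood above all 4 controls.

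With sgHS1-sg2 the reads were 14 and 24 (ratio 1.39, limma adjusted p = 0.220), and against sgGal4 replicates 1 and 2 alone the ratio was 2.03 (limma adjusted p = 0.0353). For sg3'HS1 they were 29 and 2, with a ratio of 1.25 and limma adjusted p of 0.233, and in sgHS1-5 the 6 libraries had 10, 26, 3, 2, 30 and 7, with a ratio of 1.22 and adjusted p of 0.131. In these 3 tables the lowest guide level fell below sgGal4 replicate 4. Its 2 reads had a level of 4.22 in the sg3'HS1 table, 4.44 in sgHS1-sg2 and 5.05 in sgHS1-5. Without sgGal4 replicate 4, the sgHBG-sg2, sgHBD-1kb and sgHS1-5 windows were called by limma, with adjusted p of 0.0367, 0.0364 and 0.0432 and ratios of 1.78, 1.67 and 1.82.

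Downstream of the start, sgGal4 reads were nearly absent. The sgHS5-sg2 window (chr16:67596744-67597043) had 12 and 8 guide reads and 0 in each of the 4 sgGal4 libraries. Guide levels of 3.70 and 3.89 lay above all 4 controls, between -0.23 and 2.87. Among reads of the table's windows the guide reads were at least 10.7-fold higher, taking a floor of 3 reads over the 4 sgGal4 libraries together. The log2 ratio, which is no bound here, was 1.73 (limma adjusted p = 0.0885). The sgHS4 window (chr16:67596877-67597176) had 21 and 4 guide reads against 0, 0, 1 and 1. Its log2 ratio was 0.96 (limma adjusted p = 0.413) and guide and control levels did not overlap, the lowest guide level being 4.30 and the highest control 4.28. Against sgGal4 replicates 1 and 2 alone the 2 intron windows had ratios of 3.68 and 3.32 (limma adjusted p = 0.01001 and 0.0257).

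**Figure D3:**
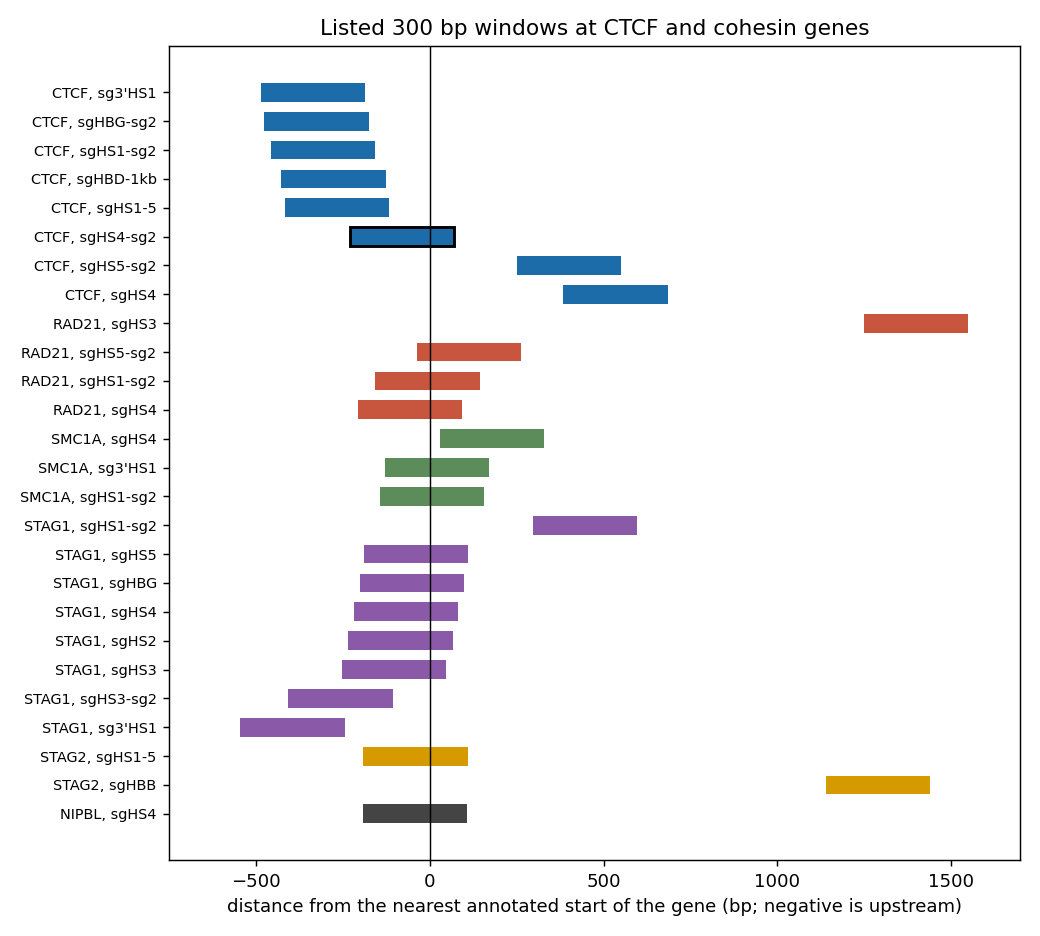
Position of the 26 listed windows (bars of 300 bp, 1 row per gene and table) by distance from the gene's nearest annotated start (horizontal axis, bp, negative is upstream). Bars are coloured by gene and the outlined bar is the called CTCF window; 24 of 26 have their centre within 1 kb of a start.

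Of the ring subunits, RAD21, the cleavable kleisin that closes the ring, had the largest log2 ratio of the 26 entries on the deposited scale, whereas on recovered reads CTCF in sgHS4-sg2 was higher. Its start lies on the minus strand of chromosome 8 at 117887015. Starts of MIR3610 and RAD21-AS1 lie within 1 kb of 3 of its 4 windows. The fourth is an intron window with sgHS3 (chr8:117884900-117885199), centred 1398.5 bp downstream of another annotated start. It held 36, 3 and 9 guide reads against 0, 0, 1 and 0 in sgGal4. The guide levels were 5.21, 2.95 and 3.95, and the lowest of them was under the 3.198 of sgGal4 replicate 3, which came from 1 read. The log2 ratio was 2.40 and the difference of mean log2 levels 3.11 ± 1.03 (SE, n = 3 and 4 libraries, limma adjusted p = 0.0596). On recovered reads limma called it, with a ratio of 2.44 and adjusted p of 0.0470 at a pseudocount of 1, and 1.37 and 0.0452 at a pseudocount of 5. It also passed without sgGal4 replicate 3 (ratio 3.32, limma adjusted p = 0.0339) or 4 (2.55, 0.0485). It did not pass without sgGal4 replicate 1 (limma adjusted p = 0.130) or 2 (0.109). Nor did it without guide replicate 1 (0.172), 2 (0.0973) or 3 (0.149). Pooled reads were 46.2 times as frequent as in sgGal4, with an exact 95% interval from 7.90 to 1860 for counting error alone.

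The promoter windows of RAD21 gave no call. With sgHS1-sg2 (chr8:117886872-117887171) guide reads were 21 and 7 against 0, 0, 1 and 0, and the log2 ratio was 1.44 (limma adjusted p = 0.203). With sgHS4 (chr8:117886923-117887222) they were 13 and 4 against 0, 0, 1 and 0, with a ratio of 0.95 (limma adjusted p = 0.414). In both tables a guide level stood under sgGal4 replicate 3. With sgHS5-sg2 (chr8:117886752-117887051) reads were 2 and 10 against 0, 5, 0 and 0, and the ratio of 1.02 (limma adjusted p = 0.523) became -0.77 without guide replicate 2. Against sgGal4 replicates 1 and 2 alone the sgHS1-sg2 and sgHS4 windows were called, with ratios of 3.75 and 3.02 (limma adjusted p = 0.00307 and 0.0257).

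SMC1A, an ATPase arm of the ring on the X chromosome, had 3 windows, 0 of them called. Its annotated starts lie on the minus strand and the start of RIBC1, a neighbour read from the opposite strand, is within 1 kb. The sgHS4 window (chrX:53448795-53449094, 250 of its bases exonic) had 12 and 2 guide reads against 0, 1, 0 and 0, a log2 ratio of 0.93 (limma adjusted p = 0.405), which was 2.31 against sgGal4 replicates 1 and 2 alone (limma adjusted p = 0.0327). At the promoter, sg3'HS1 (chrX:53449432-53449731) had 12 and 3 reads against 3, 8, 0 and 1, with a ratio of 0.98 (limma adjusted p = 0.282). Guide levels lay above all controls in both tables. In sgHS1-sg2 (chrX:53449522-53449821) the reads were 7 and 10 against 3, 8, 0 and 0 and the ratio was 0.79 (limma adjusted p = 0.426). There the lower guide library overlapped the controls, and without guide replicate 2 the ratio was -0.045. Per read, the guide frequency at the promoter was 1.35 and 1.56 times that of sgGal4, with exact 95% counting intervals of 0.59 to 3.16 and 0.69 to 3.69.

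SMC3, the partner ATPase of SMC1A, had no listed window within 10000 bp of a start. The closest window in the 17 tables, in sgHS5 (chr10:112306917-112307216), lay 20386.5 bp away and had a log2 ratio of 0.26.

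STAG1 and STAG2 encode alternative subunits that contact CTCF. STAG1 was listed as often as CTCF, in 8 tables. Of its windows, 7 formed a chain of overlapping stretches over the promoter, with log2 ratios from -0.71 to 0.83 and a median of 0.20, and limma called none of them. Its start is on the minus strand of chromosome 3 at 136471245, with STAG1-DT starting within 1 kb on the other strand. The stretch shared by 5 of the promoter windows is given first, followed by the intron window, the single STAG1 window with a ratio above 1. Both are written on the gene's strand, with AGNGGGCG matches in capitals.
STAG1 promoter, chr3:136471246-136471435, minus strand, GRCh37: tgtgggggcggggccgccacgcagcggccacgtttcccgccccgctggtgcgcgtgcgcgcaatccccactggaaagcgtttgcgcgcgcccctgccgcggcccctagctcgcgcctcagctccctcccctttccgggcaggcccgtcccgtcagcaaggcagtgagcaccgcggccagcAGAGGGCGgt
STAG1 intron, chr3:136470613-136470912, minus strand, GRCh37: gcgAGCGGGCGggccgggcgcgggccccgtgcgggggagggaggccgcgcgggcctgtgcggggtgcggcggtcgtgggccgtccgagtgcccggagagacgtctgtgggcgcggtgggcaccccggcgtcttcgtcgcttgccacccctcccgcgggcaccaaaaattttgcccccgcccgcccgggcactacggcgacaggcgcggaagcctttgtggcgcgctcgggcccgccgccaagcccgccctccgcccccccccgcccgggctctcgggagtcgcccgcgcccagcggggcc

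The promoter held many sgGal4 reads, 25 or 26 in those 5 tables, more than at any other member window. In sgHS4 (chr3:136471164-136471463) guide reads were 16 and 1 against 7, 14, 3 and 2, with guide levels of 4.09 and 3.45 against 3.998, 4.08, 5.00 and 4.71. The guides lay among or under the controls and the ratio was -0.71 (limma adjusted p = 0.507), the lowest of the 26. In sgHBG (chr3:136471148-136471447) reads were 11, 2, 13 and 15 against 7, 14, 2 and 2, and the ratio was 0.04 (limma adjusted p = 0.899). In sgHS2 (chr3:136471180-136471479) they were 6, 2, 2, 5 and 21 against 7, 14, 3 and 2, with a ratio of -0.05 (limma adjusted p = 0.943). Guide and control levels overlapped in all 3 tables.

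The sgHS3 window (chr3:136471199-136471498) had 3, 5 and 15 guide reads against 7, 13, 3 and 2, and a ratio of 0.20 (limma adjusted p = 0.968). The sgHS5 window (chr3:136471136-136471435) had 9, 39 and 33 against 7, 15, 2 and 2, and a ratio of 0.47 (limma adjusted p = 0.641). Pooled reads at these 5 windows were 0.47 to 1.59 times as frequent in guides as in sgGal4. The exact 95% counting interval lay wholly under 1 in sgHS4 (0.24 to 0.90) and contained 1 in the other 4. The direction at the promoter depended on the scale: on recovered reads with a pseudocount of 1 the log2 ratio was -0.015 in sgHS5, -0.17 in sgHBG and -0.26 in sgHS3, and 0.10 in sgHS2.

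Further upstream, sg3'HS1 (chr3:136471491-136471790) had 11 and 2 guide reads against 4, 8, 2 and 0, with a ratio of 0.47 (limma adjusted p = 0.530; -0.086 on recovered reads) and overlapping levels. The single sgHS3-sg2 library had 18 reads (chr3:136471353-136471652) against 4, 4, 2 and 0, a level of 4.25 just above the highest control at 4.21. That is 0.0280% of its reads in listed windows (exact 95% interval 0.0166% to 0.0443%), and the ratio was 0.83 (limma adjusted p = 0.314, with the lone library assumed to vary like sgGal4). Against sgGal4 replicates 1 and 2 alone the ratio was 1.37, and the variation between guide libraries cannot be measured there.

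At the intron window of STAG1, sgGal4 had few reads: it had 1, 1, 0 and 0 in its 4 libraries, and sgHS1-sg2 had 18 and 7. Guide levels of 4.25 and 3.92 lay above all 4 controls, the highest of which was 3.22. The log2 ratio was 1.54 (difference 1.82 ± 0.71 SE, limma adjusted p = 0.134). Against sgGal4 replicates 1 and 2 alone it was 2.67 (limma adjusted p = 0.00465).

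The promoter chain of STAG1 allowed a ranking of loci by the correlation of their log2 ratio with it over tables. Among 3944 loci that share at least 6 tables with it, the highest Pearson correlations of the log2 ratio were at GTF2H4 (chr6:30875627-30876052, r = 0.86 over 7 tables), MYO15B (chr17:73597299-73597921, r = 0.85 over 7) and RPRML (chr17:45054026-45054342, r = 0.83 over 6). All points share the sgGal4 libraries and the guide libraries' scaling, and the values only describe these tables. They are the highest of 3944 correlations, each over 6 or 7 points, and so do not show that these loci vary alike.

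STAG2 had a promoter window and an intron window, on the plus strand of the X chromosome. In sgHS1-5 the promoter window (chrX:123094178-123094477, with STAG2-AS1 starting within 1 kb) had 11, 13, 2, 0, 9 and 2 guide reads against 3, 6, 0 and 0. All 6 guide levels, from 3.70 to 5.04, stood above the highest control at 3.68, but the library with 0 reads was placed at 3.70 by the scaling. The log2 ratio was 0.99 (limma adjusted p = 0.157), and pooled reads were 1.32 times as frequent as in sgGal4 (exact 95% counting interval 0.63 to 3.11).

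In the single sgHBB library an intron window, centred 1290.5 bp downstream of a start, held 25 reads against 0, 0, 0 and 1. That is 0.0283% of its reads in listed windows (exact 95% interval 0.0183% to 0.0418%), and 0 reads in sgGal4 replicates 1, 2 and 3 allow up to 0.00712%, 0.00403% and 0.0397% (3 reads of each total). The 1 read of replicate 4 has an exact 95% interval up to 0.0758%, so the shallow controls allow a share as high as the guide library's. The ratio was 1.94 (limma adjusted p = 0.165), and 4.39 against sgGal4 replicates 1 and 2, with no second guide library to show how far guide libraries vary. This window is shown because its sequence departs from most: 35.7% G and C and 0 CpG, where the 26 entries had medians of 70.7% and 33.5. The RAD21 intron window of sgHS3 departs likewise, with 41.3% and 4 CpG.
STAG2 intron, chrX:123098161-123098460, plus strand, GRCh37: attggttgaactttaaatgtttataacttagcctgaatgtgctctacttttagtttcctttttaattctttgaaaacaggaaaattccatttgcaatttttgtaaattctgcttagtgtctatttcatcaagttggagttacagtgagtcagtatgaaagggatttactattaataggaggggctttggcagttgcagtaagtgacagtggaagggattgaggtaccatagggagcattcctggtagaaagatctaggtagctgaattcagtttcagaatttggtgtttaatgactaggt

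NIPBL, the cohesin loader, was listed only in sgHS4, with a window (chr5:36876679-36876978, plus strand) centred 42.5 bp upstream of its start and within 1 kb of that of NIPBL-DT. Guide reads were 53 and 7 against 5, 6, 1 and 1, and guide levels of 5.75 and 4.73 lay above all controls, the highest of which was 4.28. The log2 ratio was 1.43, rank 455 of 10734 windows (difference 1.42 ± 0.57 SE, limma adjusted p = 0.296). It was the single member window with TTTGGCGC, an E2F-like motif, shown in capitals in the part outside the exon.
NIPBL upstream, chr5:36876679-36876870, plus strand, GRCh37: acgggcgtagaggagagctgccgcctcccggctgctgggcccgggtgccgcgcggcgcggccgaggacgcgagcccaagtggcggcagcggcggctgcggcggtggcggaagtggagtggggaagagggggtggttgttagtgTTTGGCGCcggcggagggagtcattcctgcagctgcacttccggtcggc

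Most member windows shared features of CpG-rich promoters. Of 26, 24 (92.3%) had their centre within 1 kb of a start, against 27.4% of all windows. Their G and C content had a median of 70.7% (35.7% to 80.7%), compared with 53.7% over all windows and 66.3% within 1 kb of a start, and the number of CpG had a median of 33.5, compared with 7 and 27. Searched on both strands, AGNGGGCG was present in 10 of 26 (38.5%), against 16.2% of all windows and 26.3% of those within 1 kb of a start. These 10 were the 3 CTCF windows nearest to or past the start, 6 STAG1 windows and 1 RAD21 window. Because the STAG1 windows overlap, they show the same match several times. The shorter CCCTC was in 23 of 26 (88.5%), compared with 66.4% and 80.1%. TTTGGCGC was found in 1 of 26 against 0.620% of all windows, and TTTCGCGC in 0 of 26 against 0.365%. Where N is A, a match to AGNGGGCG also holds CCCTC on its other strand, so these counts overlap. A match describes letters only.

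Window positions at these genes moved from table to table. No member window had the same coordinates in another table (0 of 26), whereas 39.6% of all windows did. Among windows with a ratio of at most -1, 98.9% recurred, and among those with at least 1, 0.992%. Listing of genes was broad: 63.8% of 19401 annotated genes had a window in at least 1 table and 11.7% in 8 or more, as CTCF and STAG1 had.

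Other genes of the pathway were taken from a list of 35, of which 29 were listed, with 118 windows. By the same limma rule 2 of the 118 were called higher and 8 lower, against 1.66% and 11.2% of all windows, and the median log2 ratio was 0.51. Cohesin regulators and variants (15 genes, 11 listed, 46 windows) had 0 calls and a median of 0.51. The highest ratio was 3.60 at STAG3, a meiotic STAG subunit, in sgHS4, with 174 and 12 guide reads against 0, 0, 1 and 0 (limma adjusted p = 0.206). That window was centred 7230.5 bp downstream of the start. The STAG3 promoter window of sgHS4 had a ratio of -0.28, with 24 guide and 27 sgGal4 reads. The lowest of the 46 ratios was -0.48 at MAU2, the partner of NIPBL in the loader, in sgHS4-sg2, with 10 and 5 reads against 9, 10, 3 and 2.

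Among the CTCF paralog and DNA-binding partners (6 genes, 5 listed, 22 windows), MAZ, a zinc-finger factor, was called higher in sgHBD-1kb. It had 13 and 7 guide reads against 1, 1, 0 and 0, and a ratio of 1.85 (limma adjusted p = 0.0472). Limma also called it on recovered reads with either pseudocount, with a low-read filter and with sgGal4 replicates 1 and 2 alone (adjusted p = 1.7e-05). With an intensity trend in the variance prior it was not called. The call was lost without sgGal4 replicate 1 or 2 (limma adjusted p = 0.0994 and 0.0805) and without guide replicate 1 or 2 (0.254 and 0.170). The highest ratio of this group was 4.10 at the promoter of ZNF143 in sg3'HS1, with 199 and 32 reads against 10, 9, 0 and 0 (limma adjusted p = 0.0590). That ZNF143 window was called by limma on recovered reads (adjusted p = 0.0439 and 0.0111 at pseudocounts of 1 and 5) and with a low-read filter (0.0132). It was also called with an intensity trend in the variance prior (2.9e-05) and with sgGal4 replicates 1 and 2 alone (0.0107). When any single sgGal4 library was left out, it was not called. Without guide replicate 2, which leaves 1 guide library, its ratio was 4.47. The lowest ratio was -0.31 at YY1 in sgHS5.

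Condensin and SMC5/6 genes (14 genes, 13 listed, 50 windows) had 1 window called higher, at NSMCE2 in sgHS3. Its reads were 71, 16 and 23 against 4, 0, 1 and 2, with a ratio of 2.71 (limma adjusted p = 0.0445). Without sgGal4 replicate 1, limma's adjusted p was 0.0789, and without guide replicates 1, 2 or 3 it was 0.127, 0.102 and 0.111. The 8 lower calls were all 1 window, chr4:17823355-17823654 near NCAPG, a condensin subunit, which all 17 tables list. There sgGal4 had 23 reads, and the guides of the 8 tables where it was called had 0 to 2 reads, with ratios of -2.30 to -3.97. On recovered reads with either pseudocount 0 of these were called, and of the 6 calls in tables with more than 1 guide library, 1 stayed without guide replicate 1 and 3 without guide replicate 2. PTTG1, REC8, RAD21L1, SMC1B, CTCFL and NCAPD2 had no listed window.

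**Figure D4:**
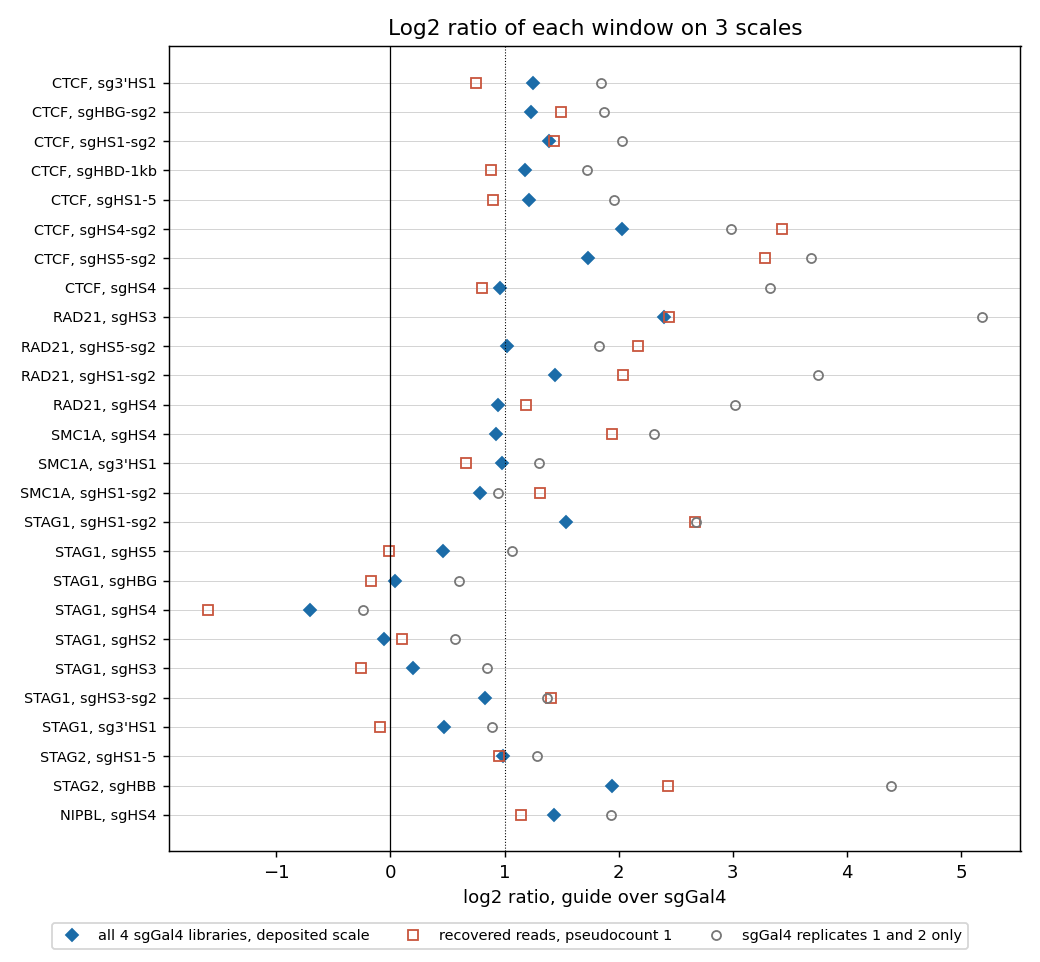
Log2 ratio of guide over sgGal4 (horizontal axis) at the 26 windows, on the deposited scale with all 4 sgGal4 libraries (filled diamonds), on recovered reads with a pseudocount of 1 (open squares) and with sgGal4 replicates 1 and 2 only (open circles). The dotted line marks a log2 ratio of 1; the RAD21 window of sgHS3 moves from 2.40 to 5.18 without the shallow controls, whereas STAG1 in sgHS4 stays under 0 on all 3 scales.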

How the data were processed

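CAPTURE-ChIP-seq reads from K562 cells that aligned to 1 place in hg19 were kept, per the labels' protocols, with Bowtie 1.0.0 and Picard named in the submitters' processing notes. Neither a window caller nor a normalisation method is given in the sources used here. Per the file headers, each of the 17 deposited tables holds 300 bp windows with a value per library, which from the values are log2 levels that the authors scaled within each table. Of 61 samples, 46 have columns (42 guide and 4 sgGal4 libraries) and 15 were not analysed here. For sgHBG-sg2 the label text names another table, and the column names were followed.

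For each window, levels were made linear and averaged by group, and the log2 ratio was taken from guide mean to sgGal4 mean. Levels within a column lie on a line in log2(reads + 1), and 100% of values gave whole reads (within 0.01, or 0.01% of the value). Slopes ran from 0.596 to 1.38, so a log2 ratio here is not one of reads. Reads are those in listed windows, not library depth, and without molecular identifiers intervals and floors cover counting error only. Intervals are exact (Clopper-Pearson for shares, conditional binomial for ratios, 95%).

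Each table was fitted with limma 3.58.1 (R 4.3.3), guide against sgGal4, without covariates and with Benjamini-Hochberg adjustment over its windows. A lone guide library was assumed to vary like sgGal4. The fit was run on simulated normal values that had the same spread in every library. These lack the library-specific levels of windows without reads, so the run does not bear on low-read windows. Starts came from GENCODE release 44 lifted to GRCh37, and sequence from GRCh37. Every member window is named. From the other pathway genes the windows named are those called and the highest and lowest ratio of each sublist. The members and lists were chosen with earlier results of these data known. Libraries were not treated as paired by replicate number in the main fit. Over 36 same-numbered pairs the correlation of deviations from the group mean ran from -0.25 to 0.22. With 2 guide libraries these deviations mirror each other, so the check cannot exclude pairing. Alternatives covered read scales, variance prior, low-read filter, distance, call rule, ratio, replicate block and left-out libraries.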

Additional observations from a re-analysis of the deposited data

Results flagged for a closer look

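In the sg3'HS1 table, sgGal4 replicate 4 stood far above the other 3 controls at the CTCF window from 67595885, with a level of 4.22 from 2 reads, and sgGal4 replicate 3 did so at the STAG1 window from 136471491, with 4.064 from 2 reads. By Dixon's test at 95%, 2 of 30 groups of libraries at the member windows were flagged in this way. The usual rate of about 1 in 20 assumes independent groups of like values. Most groups here are the same 4 sgGal4 libraries, and replicate 3 or 4 was the highest of them in 26 of 26 entries. That rate therefore gives no measure here.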

How the results depend on the processing

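The count of member windows called higher (1) became 2 with a filter on low reads (the RAD21 window of sgHS3 joined), 0 at a limma p of at most 1e-05, 14 with sgGal4 replicates 1 and 2 only, and 0 to 5 with a library left out. It was 12 with a replicate block, where 11.1% of all windows were called. Tables with 1 guide library cannot be blocked and entered these counts and medians with their main fit. The same holds, here and below, for a table without the left-out replicate or with only that guide library. In tables with 2 guide libraries the block leaves them set against sgGal4 replicates 1 and 2. In the 5 tables with 3 or more pairs, sgGal4 replicate 3 or 4 enters too. The same number correlated best in 5 of 36 cases, a check that cannot show whether the numbers pair samples. On recovered reads the count stayed 1, but the window called was RAD21 in sgHS3 in place of CTCF in sgHS4-sg2. Member windows called lower were 0 under every alternative run. The median member ratio (1.004) was 1.86 with sgGal4 replicates 1 and 2, which moved the median of all windows from 0.078 to 0.39. In the 14 tables where it was fitted, the replicate block gives a difference of log2 levels, which is not the same measure. With the block the medians were 1.73 for members and 0.22 for all windows. On recovered reads with pseudocounts of 1 and 5 the median member ratio was 1.16 and 0.67, and that of all windows -0.12 and -0.076. As an unblocked difference of log2 levels the medians were 1.32 for members and 0.17 for all windows. With the low-read filter they were 1.18, over the 21 member entries kept, and -0.015.

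Pathway windows called higher (2) were 6 with an intensity trend in the variance prior, 17 with the replicate block, 38 with sgGal4 replicates 1 and 2, 1 within 5000 bp (NSMCE2 lies 8684.5 bp from its start), 0 at a p of at most 1e-05 and 0 to 4 with a library left out. Those called lower (8) were 0 on recovered reads with either pseudocount, 0 at a p of at most 1e-05, and 3 to 9 with a library left out.

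Of 296 repeats for single member windows, 235 kept direction and side of the threshold, 31 gained and 6 lost a call, and 24 turned sign. None of the latter was called before or after. With pseudocounts of 1 and 5 on recovered reads, STAG1 ratios were -0.015 and -0.012 in sgHS5, -0.17 and -0.12 in sgHBG, 0.10 and 0.068 in sgHS2, -0.26 and -0.18 in sgHS3, and -0.086 and -0.050 in sg3'HS1. With sgGal4 replicates 1 and 2 that of sgHS2 was 0.57, and as a difference of log2 levels that of sgHS3 was -0.038. With a library left out, ratios ran from -0.12 to 0.21 for STAG1 in sgHBG, -0.31 to 0.20 in sgHS2 and -0.56 to 0.63 in sgHS3, from -0.77 to 1.80 for RAD21 in sgHS5-sg2 and from -0.045 to 1.31 for SMC1A in sgHS1-sg2. Why values moved was not tested. With 0 to 26 sgGal4 reads per window, a difference under a few reads was not detectable.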
